A study of Saccharomyces cerevisiae with 24 samples.

Results

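Prp40 is a protein of the U1 snRNP, the particle that meets the 5' splice site of a nascent transcript. Its signal on a gene was measured in budding yeast in separate experiments that used a short and a standard fixation, and both profiles are compared here gene by gene. The short-fixation profile comes from the untreated control of an RNase experiment: Prp40-9myc cells in rich medium at O.D. 0.6, with fixation cut back to match that protocol and no RNase added. The standard profile is Prp40-9myc in the same medium at the same density with no such change. Both strains carry the C-terminal 9myc tag at the PRP40 locus. The short-fixation column combines 3 biological replicates and the standard column 5. These are 2 of the 24 columns of the series, and 5637 of 5674 genes on the array had a value in both.

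In chromatin immunoprecipitation on arrays (ChIP-chip), proteins are crosslinked to chromatin, the tagged factor is pulled down with its DNA, and that DNA is hybridised against whole-cell extract DNA on spotted open reading frames. A splicing factor that rides on nascent RNA reaches the DNA through RNA and RNA polymerase II, so the extent of crosslinking can matter for what is recovered. Few yeast genes have an intron, and those for ribosomal proteins make up a large share of the intron-bearing transcripts of growing cells.

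Each value is a log2 ratio per gene, most likely of immunoprecipitate over extract. The labels do not state that direction, and it is taken from the positive values of intron genes. A difference is short fixation minus standard on that scale. Single replicates were not analysed here, so there is no spread between replicates, no error on a single gene and no p-value, and each difference compares 2 pooled columns. Fixation and experiment cannot be told apart, because each fixation was used in an experiment of its own. The labels name no time for either fixation. Other columns serve as companions: Mud2-13myc with short and with standard fixation (3 replicates each), Prp40-9myc in a cap-binding complex deletion (3), RNA polymerase II (2), Spt5-9myc (4), BBP-3HA (4), Lea1-13myc (3) and Prp5-9myc (4), all in rich medium. A Prp40-3myc control (4) differs in tag and was grown in SC-URA medium. Precision is limited by the small number of arrays. Column medians were -0.10 with short fixation and -0.05 with standard, and robust SDs 0.22 and 0.24.

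The log2 ratios of intron genes were higher with short fixation, but their standing among all genes was nearly the same. Their median percentile among all genes was 97.16 with short fixation and 97.17 with standard. The median over 236 intron genes was 1.49 with short fixation and 1.13 with standard, and 184 of the 236 had a positive difference. Over 5375 intronless genes the medians were -0.11 and -0.06, and 2351 differences were positive. A difference of 1.5-fold or more (0.585 in log2) upwards was found in 63 intron genes and downwards in 5, while over all genes 132 were higher, 2.34% of 5637, and 76 lower, 1.35%. That balance over all genes turned with the scaling, to 51 higher and 94 lower after quantile normalisation and 47 higher and 56 lower after the short-fixation column was divided by its slope over intron genes. At 2-fold or more 17 genes were higher, 0.302% of all, and 6 lower, 0.106%. Among intronless genes the robust SD of the difference was 0.21. Most of these genes lie below 1 in the standard profile, so this is the scale of scatter at low levels. Scatter between both experiments at the level of intron genes was not measured.

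**Figure D1:**
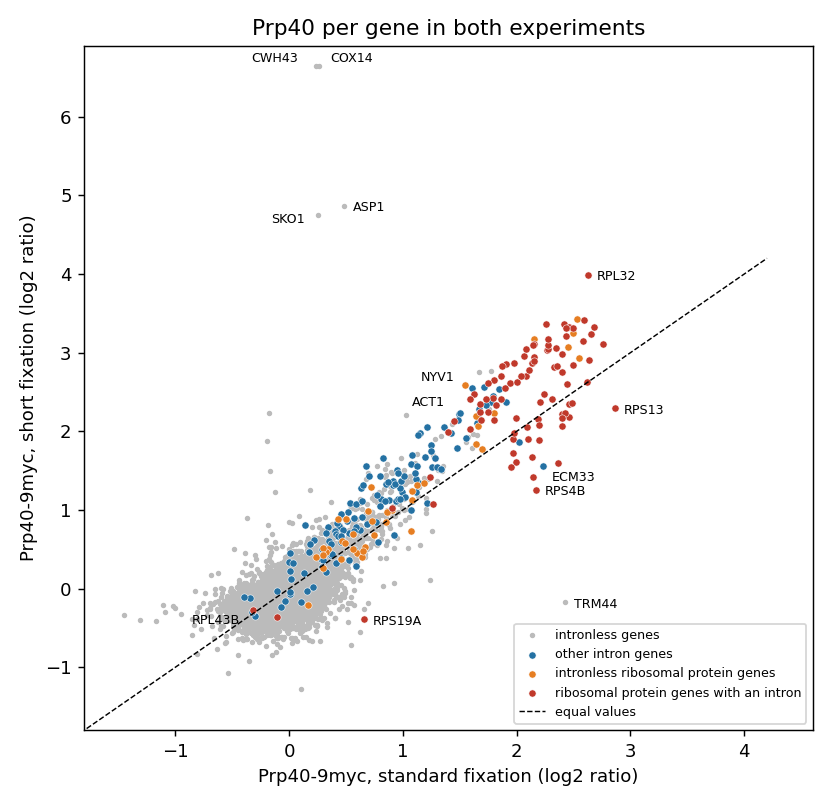
Log2 ratio of Prp40-9myc per gene with short fixation (vertical axis) against standard fixation (horizontal axis), 1 point per gene, coloured by class. Other intron genes follow a line steeper than equality, while ribosomal protein genes with an intron spread on both sides of the dashed line. CWH43 and COX14 sit at the upper limit of the scale.

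Ribosomal protein genes with an intron had the largest class median of difference among the intron classes. Over 90 of them the median was 2.47 with short fixation and 2.14 with standard, with a median difference of 0.53, and 66 were higher. At 1.5-fold, 41 were higher and 4 lower. The 51 genes of the large subunit had medians of 2.48 and 2.14, with a median difference of 0.56, and the 39 of the small subunit 2.43 and 2.14, with 0.49. Both subunits thus stood nearly level with each other in each profile. The size of the rise depended on how the columns were scaled. After quantile normalisation, which gives both columns the same distribution, the median difference was 0.0054, with 0 of the 90 genes higher by 1.5-fold and 24 lower. With the short-fixation column divided by its slope over intron genes, it was 0.10, with 1 higher and 12 lower.

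Among listed intron genes, the highest with short fixation was RPL32, a protein of the large subunit, at 3.99, with 2.62 for standard. It ranked 1 among intron genes with short fixation and 6 with standard. The RefSeq span of RPL32, 393 bases, is a multiple of 3, as the span of an intronless gene would be. Its place on the intron list could not be checked here. RPL18B followed at 3.42 and 2.59, RPS25A at 3.37 and 2.42, and RPL13B at 3.37 and 2.26. RPL13B ranked 4 with short fixation and 35 with standard. RPL20A had 3.33 and 2.68, RPL26A 3.32 and 2.46, and RPS22B, which carries a snoRNA in an intron, 3.31 and 2.50. The standard profile was led by RPS13 instead, at 2.29 with short fixation and 2.86 with standard, ranks 64 and 1. RPL23A also fell back in rank, with 2.63 and 2.62, ranks 40 and 7. RPL30, whose protein represses the splicing of its own transcript, had 3.06 and 2.35. Of the 10 highest intron genes of each profile, 5 were shared.

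The steepest single differences upwards among listed intron genes were RPL32 at 1.37, RPL13B at 1.11 and RPL25 at 0.97. RPS23B, RPL42A and RPS9A followed, each at 0.96. RPL25 stood at 3.05 with short fixation and 2.08 with standard. Downwards they were RPS19A at -1.05, RPS4B at -0.91, RPL2B at -0.76 and RPL16A at -0.72. RPS4B stood at 1.26 with short fixation and 2.17 with standard, and RPS19A at -0.39 and 0.65. Every gene named in this paragraph codes for a ribosomal protein, and those that went down each have a partner copy elsewhere in the genome. So do RPL13B, RPS23B, RPL42A and RPS9A among those that went up.

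Other intron genes, 131 in number, had medians of 1.08 with short fixation and 0.71 with standard. Their median difference was 0.29, 110 were higher, and at 1.5-fold 22 were higher and 1 lower. After quantile normalisation the median difference was 0.10, and after division by the slope 0.13. NYV1, a SNARE of the vacuole, led with 2.55 with short fixation and 1.60 with standard. Also near the upper end were SMD2, a core Sm protein of spliceosomal snRNPs, at 1.56 and 0.68, LSM7 of the Lsm ring at 2.06 and 1.21, and the mRNA export factor YRA1 at 2.57 and 1.71. DYN2, the dynein light chain, had 1.66 and 0.83, MMS2, a partner of the ubiquitin-conjugating enzyme Ubc13, 1.98 and 1.15, and EFM5, a methyltransferase of elongation factor 1A, 1.96 and 1.13.

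Among genes of the actin cytoskeleton, ACT1 (actin) had 2.23 with short fixation and 1.49 with standard, PFY1 (profilin) 2.45 and 1.79, COF1 (cofilin) 2.37 and 1.77, and ARP2, of the actin-nucleating complex, 1.97 and 1.42. QCR9, of respiratory complex III, had 2.23 and 1.51. Lower in the profile, the RNA helicase gene DBP2 had 1.05 and 0.80 and GCR1, an activator of glycolytic genes, 0.59 and 0.46. PRP40 itself, which has no intron, stood at -0.08 and -0.03. RUB1, a ubiquitin-like protein, was near the intronless level in the standard profile and above it with short fixation, at 0.81 and 0.14.

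ECM33, a cell wall protein, was the other intron gene lower by 1.5-fold, at 1.55 with short fixation and 2.23 with standard. EFB1, elongation factor 1B alpha and a snoRNA host, had 1.86 and 2.02. The ubiquitin-conjugating enzyme gene UBC8 had 0.29 and 0.59, and HAC1, whose intron is removed by Ire1 and tRNA ligase and not by the spliceosome, 0.36 and 0.53. These genes ran against the direction of their class by less than 1.5-fold, ECM33 aside. The 8 hosts of intron-borne snoRNAs, some of them ribosomal protein genes counted above, had medians of 2.16 and 1.92, with 6 higher, and their median difference of 0.18 was -0.22 after quantile normalisation and -0.07 after division by the slope. Meiotic intron genes, which growing cells hardly transcribe, had medians of -0.11 and -0.09 over 15 genes, 8 of them higher, with a median difference of 0.0041. MOB2 at 3.36 and BUD25 at -0.41 had a short-fixation value and no standard value.

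**Figure D2:**
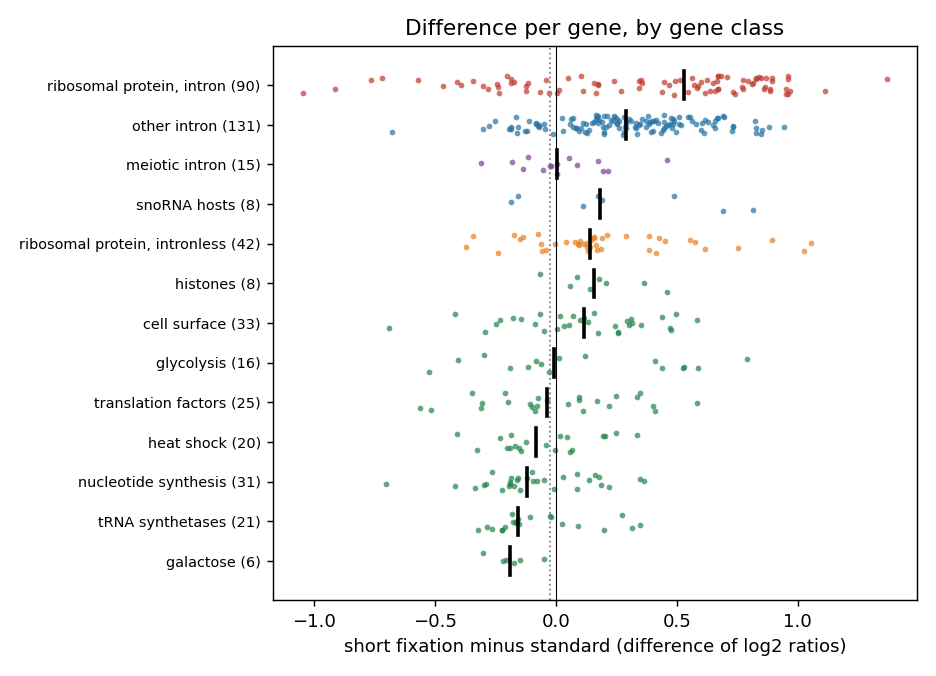
Difference per gene (short fixation minus standard, log2 ratios) by gene class, with the number of genes in brackets. Points are genes, black bars are class medians and the dotted line is the median of all genes. The ribosomal protein intron class has the widest spread, and all 6 galactose genes lie below 0.

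The difference varied with the level in the standard profile, among intron and intronless genes. Intron genes below 0 in the standard profile had a median difference of 0.02 (20 genes), those between 0 and 1 had 0.24 (88 genes), those between 1 and 2 had 0.51 (70 genes), and those at 2 or more had 0.48 (58 genes). In the last of these bins 39 of 58 genes were higher with short fixation. Intronless genes had 0.02 (3181 genes), -0.13 (2132 genes), 0.26 (56 genes) and 0.69 (6 genes) in the same bins. Bins made on the standard values share that column with the difference. The upper end of the short-fixation profile reached further: 20 intron genes were at 3 or more with short fixation and 0 with standard. The highest listed intron gene was RPL32 at 3.99 with short fixation and RPS13 at 2.86 with standard. Of the 6 intronless genes in the highest bin, 4 were at 3 or more with short fixation and 0 with standard. The reduced major axis slope of short fixation on standard was 1.20 over all intron genes, 1.29 over other intron genes and 1.49 over ribosomal protein intron genes. The Theil-Sen slope, which gives outlying genes less weight, was 1.18, 1.25 and 0.99 for the same classes, so for ribosomal protein genes the slope depends on the estimator.

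The difference of ribosomal protein intron genes varied with their RNA polymerase II level, taken from a separate column. That column shares extreme values with the short-fixation profile: all 4 genes at the limit of the scale with short fixation are at the limit for the polymerase too. Its independence of either Prp40 column was not tested. In the lowest polymerase tercile of that class (30 genes) Prp40 medians were 2.01 with short fixation and 2.12 with standard, with a median difference of 0.01. The middle tercile had 2.61 and 2.10, a median difference of 0.63, and the highest 2.88 and 2.33, a median difference of 0.62. The standard profile thus held nearly the same median in the lower and middle terciles. For other intron genes the median difference was 0.26, 0.29 and 0.42 from the lowest to the highest tercile. By gene span the order ran the other way for other intron genes, with 0.40, 0.29 and 0.20 from the shortest to the longest tercile, and ribosomal protein intron genes had 0.54, 0.59 and 0.27. Among intronless genes, polymerase quintiles had median differences between -0.04 and -0.01, and span quintiles went from 0.01 for the shortest to -0.08 for the longest.

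**Figure D3:**
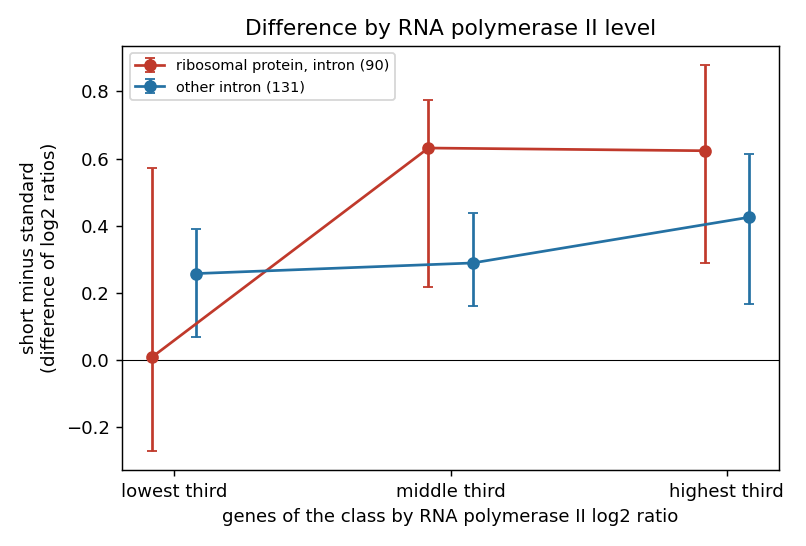
Median difference (short fixation minus standard, log2 ratios) in terciles of RNA polymerase II within each intron class, with bars from the lower to the upper quartile over genes. Ribosomal protein intron genes in the lowest tercile have a median near 0, and their quartiles overlap those of the other terciles.

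How far ranks repeated differed among classes. Spearman's rho between short fixation and standard was 0.93 over the 131 other intron genes and 0.54 over the 90 ribosomal protein intron genes. It was 0.93 over all 236 intron genes, 0.91 over 42 intronless ribosomal protein genes, 0.54 over intronless genes and 0.59 over all genes. These are correlations across genes, which share the array and the amplification and are not replicates, and the difference between classes was not tested. Ribosomal protein intron genes also lay in a narrower band. Their quartiles ran from 2.14 to 2.94 with short fixation and from 1.87 to 2.40 with standard, where those of other intron genes ran from 0.57 to 1.53 and from 0.37 to 1.12. The part of this range in the lower rho was not tested. A gene moved by a median of 19 ranks of 90 among ribosomal protein intron genes, and by up to 56. Among the 131 other intron genes the median move was 8 and the largest 38. Pearson's r in the ribosomal protein class was 0.75. A few of its genes lay far below the rest in both profiles, with RPS30A at -0.35 with short fixation and -0.11 with standard, and RPL43B at -0.27 and -0.32.

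The highest genes of both profiles were nevertheless largely the same. Leaving out values at the limit of the scale, the 100 highest genes shared 83, the 50 highest 31 and the 200 highest 170. Of the 100 highest genes with short fixation, 97 were among the 200 highest with standard. Intron genes made up 82 of the 100 highest with short fixation and 89 with standard. Above the 99th percentile of intronless genes lay 126 intron genes in each profile, 119 of them in both. Among the intronless genes alone, the 100 highest shared 65. Intronless ranks repeated better where polymerase was high, with rho of 0.69 in the highest quintile of polymerase and 0.31 in the lowest. Values also spread more there. The SD over genes was 0.62 with short fixation and 0.41 with standard in the highest quintile, and 0.19 and 0.22 in the lowest. The part of this spread in the rho was not tested.

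The other columns set these numbers in context. Over ribosomal protein intron genes, Prp40 with short fixation had a rho of 0.82 with Mud2, the partner of the branch point binding protein, also at short fixation. That is higher than its 0.54 with the standard Prp40 profile. The standard profile had 0.65 with that Mud2 column and 0.74 with Prp40 in the cap-binding complex deletion, for which short fixation had 0.64. With RNA polymerase II rho was 0.53 for short fixation and 0.32 for standard, and with the elongation factor Spt5 0.45 and 0.13. The order was the other way for Prp5, an ATPase that acts when the U2 snRNP joins, with 0.21 and 0.51, for the branch point binding protein BBP with 0.47 and 0.61, and for the U2 protein Lea1 with 0.21 and 0.38. Over other intron genes both profiles had closer values: Mud2 at short fixation had 0.81 with short and 0.82 with standard, the polymerase 0.47 and 0.51, and BBP, the widest of these pairs, 0.63 and 0.55. The labels do not say whether the columns of the RNase experiment share cultures, extracts or hybridisation days.

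**Figure D4:**
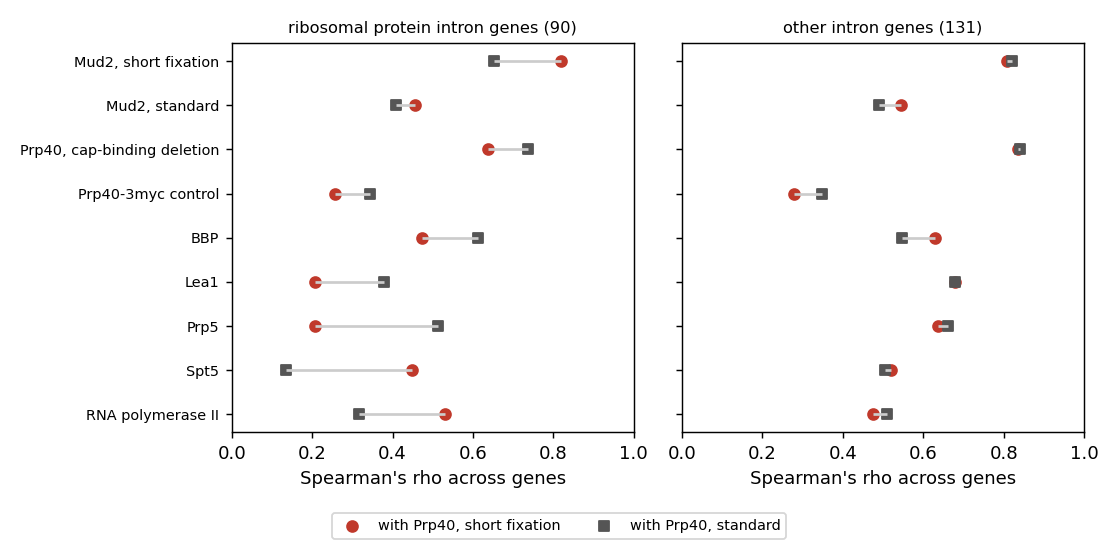
Spearman's rho across genes of each companion column with Prp40 at short fixation (circles) and at standard fixation (squares), for 90 ribosomal protein intron genes (left) and 131 other intron genes (right). Most pairs of points lie further apart on the left than on the right.

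Many yeast ribosomal proteins are encoded by a pair of copies, called A and B, that make the same or nearly the same protein. Of 42 pairs listed as having introns in both copies, 39 were measured. That list could not be checked, and RPS26A in it has a span of 360 bases, a multiple of 3. The copies stood further apart with short fixation: the median size of the A minus B difference was 0.50 with short fixation and 0.22 with standard, and it was larger with short fixation in 28 of 39 pairs. A gap of 1 or more was found in 11 pairs with short fixation and in 3 with standard. RPL2A had 3.21 with short fixation and 2.43 with standard, where RPL2B had 1.60 and 2.37. RPL42A had 3.11 and 2.15, where RPL42B had 1.54 and 1.95. In both pairs the copies were within 0.3 of each other in the standard profile and more than 1.5 apart with short fixation.

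Several small-subunit pairs showed the same. RPS16A had 3.18 with short fixation and 2.28 with standard, and RPS16B 1.73 and 1.97. RPS9A had 2.83 and 1.87, and RPS9B 1.60 and 2.00. RPS6A had 2.87 and 1.98, and RPS6B 1.67 and 2.13. In the RPS9 and RPS6 pairs the B copy was slightly the higher in the standard profile and the lower by over 1 with short fixation. RPS17A had 3.05 and 2.28, and RPS17B 1.90 and 2.10. RPL13 ran in the other direction, with the A copy at 2.37 and 2.21 and the B copy at 3.37 and 2.26.

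A few pairs were apart in both profiles. RPS19A stood at -0.39 with short fixation and 0.65 with standard, and RPS19B at 2.89 and 2.15. RPS30A had -0.35 and -0.11, and RPS30B 2.41 and 1.59. RPL43A had 2.35 and 1.68, and RPL43B -0.27 and -0.32. Of 7 pairs whose gap was 0.5 or more in the standard profile, 6 kept its sign with short fixation. The exception was RPL34, with RPL34A at 2.66 and 1.80 and RPL34B at 2.06 and 2.40. Over all 39 pairs 25 had the same sign in both profiles, with a rho of 0.38 and a Pearson r of 0.71.

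The copy with more RNA polymerase II was more often the one that stood higher with short fixation. Over the 39 copies with the higher polymerase value, Prp40 medians were 2.71 with short fixation and 2.14 with standard, 36 were higher with short fixation, and at 1.5-fold 23 were higher and 0 lower. Over their 39 partners the medians were 2.14 and 2.10, 22 were higher, and at 1.5-fold 11 were higher and 4 lower. The A minus B difference had a rho of 0.72 with that of the polymerase for short fixation and 0.31 for standard, and with that of Spt5 0.85 and 0.28. It had the sign of Spt5 in 32 pairs with short fixation and in 26 with standard. Mud2 at short fixation also had a rho of 0.84 with Prp40 at short fixation over these pairs, and a median gap of 0.36. The cap-binding complex deletion, whose fixation the labels do not mark as shortened, had a median gap of 0.35 and 5 pairs at 1 or more. Its rho was 0.64 with short fixation and 0.63 with standard. RPL19A minus RPL19B in the polymerase column, at 5.73, is far from all other pairs, which lie between -1.61 and 1.27.

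**Figure D5:**
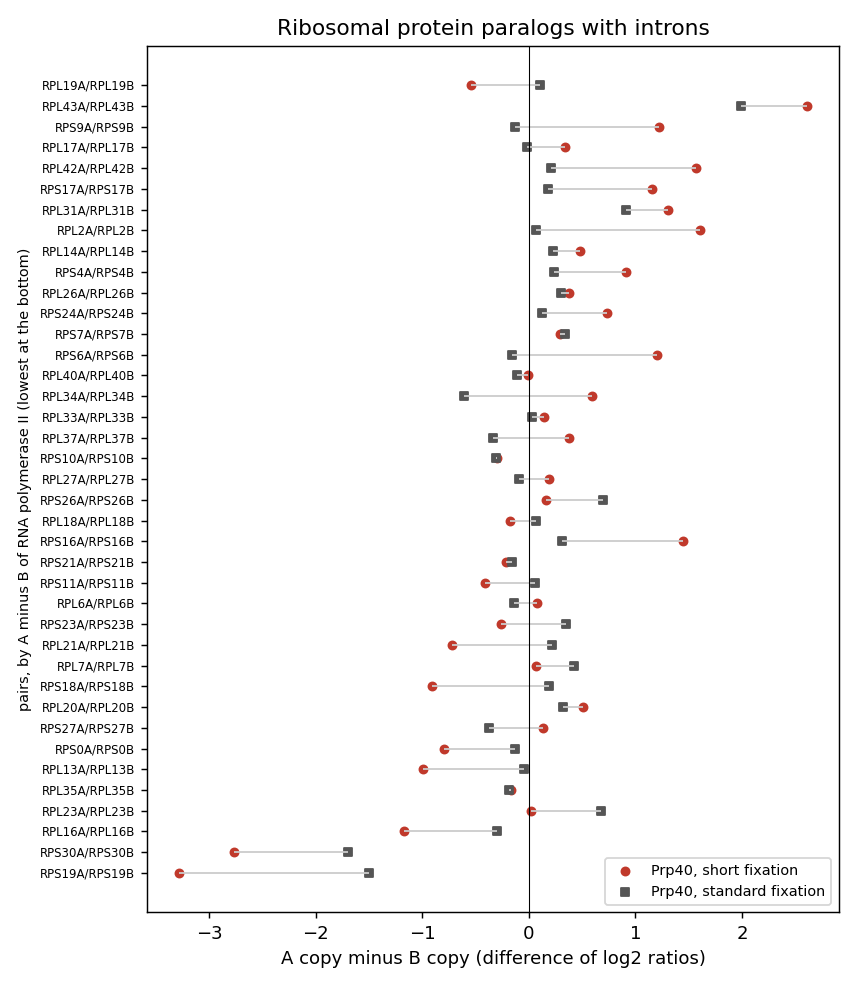
A copy minus B copy of Prp40 (difference of log2 ratios) for 39 ribosomal protein pairs listed as having introns, at short fixation (circles) and standard fixation (squares). Pairs are ordered by the same difference of RNA polymerase II. Circles lie further from 0 than squares in 28 pairs.

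Near-identical copies can hybridise to each other's spot, which would draw them together in any column, and this was not tested. The 13 measured pairs of intronless ribosomal protein genes did not show the wider gap: their median gap was 0.15 with short fixation and 0.21 with standard, and it was larger with short fixation in 7. RPS28A had -0.21 and 0.16 there, and RPS28B 0.50 and 0.56.

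Intronless ribosomal protein genes had medians of 0.88 with short fixation and 0.74 with standard over 42 genes, with 31 higher. Their median difference of 0.14 was -0.06 after quantile normalisation and -0.02 after division by the slope. At 1.5-fold 5 were higher and 0 lower. RPS8A had 2.60 with short fixation and 1.54 with standard, RPS29B 3.18 and 2.15, RPS25B 3.43 and 2.53, RPL24B 3.25 and 2.49, and RPL24A 3.07 and 2.45. These 5 stood above the median of all intron genes in both profiles. At the other end were RPP2A, a stalk protein, at 0.73 and 1.08, and RPS28A, given above. RPS25A and RPS29A, counted as intron genes, have the same RefSeq span as RPS25B and RPS29B (327 and 171 bases). Their place in the intron list could not be checked here, nor could that of RPS25B and RPS29B outside it. Without RPS25A and RPS29A, the median difference of ribosomal protein intron genes was 0.50. Other listed genes, RPL32 (393 bases) and RPS26A (360 bases) among them, also have a span that is a multiple of 3 and were kept. With only genes of the class whose span is not such a multiple, the median difference was 0.44.

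Glycolytic genes, which are intronless and strongly transcribed, had medians of 1.01 with short fixation and 0.90 with standard over 16 genes. The class had a median difference of -0.0061, or -0.17 after quantile normalisation, with 8 of 16 higher, and single genes went both ways. PDC1, pyruvate decarboxylase, had 1.56 and 0.77, the aldolase gene FBA1 1.71 and 1.12, and the alcohol dehydrogenase gene ADH1 2.29 and 1.76. The glyceraldehyde-3-phosphate dehydrogenase genes TDH2 and TDH1 had 0.52 and 1.04, and 0.52 and 0.92, and the pyruvate kinase gene CDC19 0.56 and 0.85. Ranks within the class had a rho of 0.52 between profiles. With the polymerase rho was 0.71 for short fixation and 0.06 for standard, and with Spt5 0.72 and 0.28, over 16 genes.

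The remaining classes lay near the median of all genes, which was -0.03. Among those slightly above, 8 histone genes had medians of 0.78 and 0.58, with 7 higher, and 33 cell surface genes 0.65 and 0.47, with 23 higher. The median difference of cell surface genes, 0.12, was -0.02 after quantile normalisation. HHF1 (histone H4) had 1.09 and 0.63, and the cell wall protein gene CWP1 1.48 and 0.90. Among those below, 21 tRNA synthetase genes had -0.04 and 0.08, with 6 higher, 31 nucleotide synthesis genes 0.03 and 0.13, with 10 higher, and 6 galactose genes, repressed where glucose is present, -0.21 and -0.01, with 0 higher. Translation factors (25 genes) had 0.24 and 0.33, chaperones and heat shock genes (20) 0.16 and 0.24, and amino acid synthesis genes (70) -0.06 and 0.01. Ribosome biogenesis (53 genes) had 0.02 and 0.09, the proteasome (30) 0.03 and 0.08, and mitochondrial ribosomal proteins (54) -0.14 and -0.07. The 51 genes of splicing factors had -0.11 and -0.05. In each of these classes at most 1 gene was past 1.5-fold in either direction. The copies of elongation factor 1A, TEF1 and TEF2, had 1.68 and 1.28, and 0.74 and 1.25, so they too stood further apart with short fixation.

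Intronless neighbours of ribosomal protein intron genes were examined for signal that spreads to adjacent spots. Intronless ribosomal protein genes were left out, as was 1 gene that lay on both sides. Those lying within 500 bases past the end had medians of 0.20 with short fixation and 0.17 with standard over 57 genes, and those before the start 0.05 and 0.15 over 18. Their median differences were 0.0011 and 0.05, and 29 of 57 and 9 of 18 were higher. All intronless genes had medians of -0.11 with short fixation and -0.06 with standard, so both sets stood above them in both profiles. The cause of that level was not tested.

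Of the 17 genes higher by 2-fold, 15 were classed as intronless, and of the 6 lower ones 5. Neither share was above that of all genes, 5375 of 5637. CWH43 and COX14 were at the limit of the scale with short fixation (6.64) and at 0.24 and 0.27 with standard. ASP1, an asparaginase, had 4.87 with short fixation and 0.49 with standard, SKO1, a transcription factor of the osmotic response, 4.75 and 0.25, and GAL4, the galactose activator, 2.24 and -0.17. All of these also stood out for RNA polymerase II, with 6.64 for CWH43, COX14 and SKO1, 5.63 for ASP1 and 3.98 for GAL4. Of the 15 intronless genes higher by 2-fold, 5 (33.3%) had a polymerase value of 2 or more, against 65 of 5375 intronless genes (1.21%). So did 2 of the 5 intronless genes lower by 2-fold (40.0%), TEL1 at 6.64 and SKP1 at 2.16. The part that array noise plays in these values was not tested.

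PFD1, a prefoldin subunit, had 1.88 with short fixation and -0.19 with standard, TMA22 1.501 and -0.17, PMP1, a small proteolipid of the plasma membrane, 2.75 and 1.67, and the chaperone gene DJP1 2.21 and 1.03. The lower genes were TRM44, a tRNA methyltransferase, at -0.17 and 2.43, TDA6 at -1.28 and 0.11, SKP1, of SCF ubiquitin ligases, at -0.72 and 0.54, the kinase gene TEL1 at -0.55 and 0.63, and IPI3 at 0.11 and 1.24. TRM44 stood at -0.17 in the cap-binding complex deletion and 0.08 in the Prp40-3myc control, so its high value was found in the standard column alone among these 4. For ASP1 those columns had 0.54 and 0.12, and for SKO1 0.08 and -0.33, nearer to the standard value than to the short-fixation value.

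For Mud2, the other factor measured with both fixations, class medians of short fixation minus standard were -0.27 over ribosomal protein intron genes, 0.04 over other intron genes, 0.33 over intronless ribosomal protein genes and 0.58 over glycolytic genes, where the median of all genes was 0.14. The first of these was 0.43 after quantile normalisation, so its direction depends on the scaling. As deposited, Mud2 medians over ribosomal protein intron genes were 1.96 with short fixation and 2.26 with standard, both positive. With the sign of the standard Mud2 column turned, since the labels do not state its direction, the difference was 4.28. That setting goes against the positive values of intron genes, and no result is drawn from it. A pair of further Prp40 columns was set against the standard profile, which they share with the comparison above. The cap-binding complex deletion minus standard had medians of -0.16 over ribosomal protein intron genes and -0.03 over other intron genes. The Prp40-3myc control minus standard had -1.60 and -0.72. The deletion had a rho with the standard profile of 0.74 over ribosomal protein intron genes and 0.84 over other intron genes, and the 3myc control 0.34 and 0.35, beside 0.54 and 0.93 for short fixation.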

How the data were processed

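The deposited values are log2 ratios of immunoprecipitate and whole-cell extract channels, per probe and group. Per the labels and the series' design text, DNA was amplified by linker-mediated PCR, dyes were swapped in at least 1 replicate, the scanner was a GenePix 4000B, and Rosetta Resolver served to combine replicates. The sources used here give neither direction nor within-array normalisation. Values end at plus and minus 6.64 (log2 of 100). All 24 columns have a sample, and 0 have none. Of 6284 probes, 5707 matched RefSeq's gene table (assembly R64) by locus, giving 5674 genes.

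Computed here, with Python 3.11.15, numpy 2.4.6, pandas 2.3.3, scipy 1.17.1 and matplotlib 3.10.9, were differences, medians, ranks and Spearman's rho, checked on simulated data. Members and lists were chosen with earlier results of these data known. The intron list was written from memory and names 265 genes, of which 236 were measured in both columns. Its planned check against protein length could not be made, because proteins were not used here, and 142 of the 236 have a span that is not a multiple of 3. Intronless genes are on no intron list and have a span that is such a multiple, and 26 genes fell in neither class. Their lack of an intron was not checked in another way. Terciles, neighbours and column correlations were added after the data were seen.

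Named genes, leaving out values at the limit, are 10 intron genes from the top of either profile, then 10 from both ends of the difference and 5 from both ends of the residual, 5 intronless genes at each end plus 5 above the 95th percentile of either profile, RPS13, RPL32, ACT1, YRA1, DBP2, GCR1, PRP40 and list members. CWH43, COX14 and any other gene past 2-fold outside this rule were chosen after their values were seen.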

Additional observations from a re-analysis of the deposited data

Results flagged for a closer look

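The classes below had medians of opposite sign for Prp40 and for Mud2, each short fixation minus standard and more than 0.1 from 0. The difference between factors was not tested. Ribosomal protein genes with an intron had 0.53 for Prp40 and -0.27 for Mud2, where the Mud2 value was 0.43 after quantile normalisation. Histone genes had 0.16 for Prp40 and -0.44 for Mud2. Galactose genes had -0.19 for Prp40 and 0.44 for Mud2. Nucleotide synthesis genes had -0.12 for Prp40 and 0.30 for Mud2, and tRNA synthetase genes -0.16 and 0.12. Across all genes the Mud2 median was 0.14 and the Prp40 median -0.03. The signs above are taken against 0. Against the medians of all genes, tRNA synthetase genes lay lower for both factors, so their opposite signs depend on that choice.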

How the results depend on the processing

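No paired analysis was possible because each group is 1 column with its replicates already combined, and for the same reason no replicate could be left out. Leaving out paralogs with near-identical proteins was not run, since proteins were not used here, and the list without a span check is the list used. Genes higher by 2-fold (17) were 10 after quantile normalisation, 27 after centring on intronless genes, 10 after division by the slope, 215 against the Prp40-3myc control, 132 at 1.5-fold and 7 at 3-fold. Genes lower by 2-fold (6) were 12 after quantile normalisation, 21 against the 3myc control, 76 at 1.5-fold and 1 at 3-fold. Of genes past 1.5-fold, 63.5% were higher, which became 35.2% after quantile normalisation, 45.6% after division by the slope, 73.3% after centring and 78.5% against the 3myc control.

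The median difference of ribosomal protein intron genes (0.53) was 0.0054 after quantile normalisation, 0.0999 after division by the slope, 2.02 against the 3myc control and 0 in percentile ranks. For other intron genes (0.29) the same settings gave 0.0988, 0.1255 and 0.93, and 0.39 percentile points. For intronless ribosomal protein genes (0.14) the first 3 gave -0.055, -0.0192 and 0.31. Glycolytic genes (-0.0061) had -0.1659, -0.1281 and 0.19, and 0.11 as a mean. Pearson's r in place of rho was 0.83 for all genes, 0.75 for ribosomal protein intron genes and 0.67 for intronless genes. With quantile normalisation the Mud2 medians were 0.43 for ribosomal protein intron genes, 0.32 for other intron genes, 1.02 for intronless ribosomal protein genes and 1.24 for glycolytic genes. With the sign of standard Mud2 turned they were 4.28, 1.09, 1.62 and 1.48, a setting that goes against the positive values of intron genes. For other intron genes, centring gave a Mud2 median of -0.0577. Keeping only intron genes whose span is not a multiple of 3, an alternative chosen after seeing the data, gave 0.44 for ribosomal protein and 0.29 for other intron genes. In all, 142 recomputed values were labelled the same, 43 moved and 2 reversed. This tally is not a measure of how robust the results are. Leaving out genes at the limit returned the main median in every class, and centring shifts all genes by a constant and cannot change a slope. Differences of percentile ranks are in another unit. The values labelled reversed are the Mud2 median of ribosomal protein intron genes after quantile normalisation and with the sign turned. Some medians nearer 0 also changed sign and were not given that label. After quantile normalisation the Prp40 median of snoRNA hosts went from 0.18 to -0.22, and that of intronless ribosomal protein genes from 0.14 to -0.055. Values that moved include those with another threshold or against the 3myc control, which differs in tag and medium. The cause was not tested.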

Other observations

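Some ribosomal protein genes classed as intronless stood as high for Prp40 as intron genes in both experiments. Their class rests on absence from the intron list and on span, and could not be checked here. RPS25B has the same span as RPS25A, which is listed as an intron gene. RPS25B had 3.43 with short fixation and 2.53 with standard, RPL24B 3.25 and 2.49, RPL24A 3.07 and 2.45, and RPS8B 2.93 and 2.55. The median over all 42 genes of the class was 0.88 and 0.74. The 2 measured ribosomal protein intron genes below 0 in both experiments were RPL43B at -0.27 and -0.32 and RPS30A at -0.35 and -0.11.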
